A study of Homo sapiens with 6 samples.

Results

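The 10 genes described here encode the alpha and beta tubulins of microtubules, the structures that docetaxel (DTX) binds. They were taken from the count table by symbol: the beta genes TUBB, TUBB2A, TUBB2B, TUBB3, TUBB4B and TUBB6, and the alpha genes TUBA1A, TUBA1B, TUBA1C and TUBA4A. All 10 were among the 28008 genes of the table, and 9 of the 10 passed the filter on low counts (TUBB2B did not). RNA-Seq libraries were made from DU-145-DR/tet-MUC1shRNA cells, which derive from DU-145, a human prostate cancer line, by selection in rising DTX. The line carries a MUC1 hairpin that doxycycline (DOX) switches on. Triplicate cultures received DMSO vehicle (DOX-negative, n = 3) or 500 ng/ml DOX (DOX-positive, n = 3). The hairpin of the DOX-negative cultures is known from the study and not from their treatment label, which names DTX resistance alone. No library of DOX on a control hairpin was analysed, so an effect of the drug DOX and an effect of silencing cannot be told apart. No library of the DTX-sensitive parent was analysed either, and whether DTX was present during DOX treatment is not given in the sources used here.

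Tubulins work as pairs of 1 alpha and 1 beta chain that join end to end into microtubules, which form the mitotic spindle and the tracks of axonal and vesicle transport. DTX binds the beta chain inside the polymer and holds microtubules in the assembled state. The isotypes are separate genes whose products differ mostly in a short acidic tail at the carboxyl end, which lies on the microtubule surface and is cut, extended and decorated by modifying enzymes. TUBB3, the neuronal class III isotype, is known in epithelial tumours for its association with resistance to taxanes. Free tubulin also controls its own mRNA: TTC5 reads the first residues of the nascent chain and, through SCAPER and the CNOT11-containing deadenylase, starts decay of the message.

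The start of the coding sequence is shown because it carries the element that TTC5 reads. The transcripts are those of GENCODE release 29 on GRCh38, written 5′ to 3′, with the fourth codon in capitals. That codon separates the 2 classes: it encoded isoleucine in all 6 beta genes and cysteine in all 4 alpha genes.
TUBB: atgagggaaATC
TUBB3: atgagggagATC
TUBA1B: atgcgtgagTGC
TUBA4A: atgcgtgaaTGC

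The end of the coding sequence is shown because the tail is where the isotypes part and where most of the modifying enzymes described further on act. Each run is the last 30 coding bases, stop codon included, and the capitals mark the last codon before the stop.
TUBB: ttcggtgaggaggccgaagaggagGCCtaa
TUBB4B: gaggaggaggctgaggaggaggtgGCCtag
TUBB6: gaggatgaggaagaggagatcgatGGAtag
TUBB3: gaggagtcggaggcccagggccccAAGtga
TUBA1C: gacggagaggatgagggtgaagagTATtaa
TUBA4A: tatgaggacgaggatgagggagaaGAAtaa

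TUBA1A, TUBA1B and TUBA1C end in a tyrosine codon, the residue that the tubulin tyrosine ligase TTL puts back after it is removed. TUBA4A ends in a glutamate codon and encodes no final tyrosine. Among the beta genes TUBB3 ends in lysine, TUBB6 in glycine and the other 4 in alanine. Over the whole protein the beta members were between 90.4% and 99.6% identical in 15 pairs, and TUBB3 was between 91.1% and 91.8% identical to the other 5. The alpha members were between 95.8% and 99.6% identical in 6 pairs, while alpha against beta gave 39.7% to 41.5%.

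Totals ranged from 15092691 to 23243713 counts a library. MUC1, the hairpin's target, was at 21.3, 24.8 and 19.7 CPM (counts scaled to a library size of 1000000) without DOX and fell to 3.27, 3.87 and 4.44 CPM under DOX (log2 fold change -2.52, SE 0.15, adjusted p = 4.47e-11). The prostate labels were checked against markers: KRT8, KRT18 and EPCAM of epithelium were at 345 ± 25.9, 204 ± 5.95 and 30.5 ± 1.14 CPM (SD, n = 3) without DOX. They were at 616 ± 51.9, 357 ± 6.26 and 82.1 ± 2.97 CPM with DOX, so 3 of the 3 rose (highest adjusted p = 1.38e-08 by edgeR). Of all genes tested, 13.0% were called higher. The prostate luminal marker KLK3 had 0 counts in all 6 libraries and TMPRSS2 had at most 3, as did PTPRC of blood cells. PECAM1 of endothelium had at most 6 counts, and COL1A1 of fibroblasts was at 4.13 ± 0.315 and 4.41 ± 0.612 CPM. The part of the rise of these 3 markers in the tubulin results was not tested.

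TUBB had the most counts of any tubulin gene. Its level was 901, 937 and 1078 CPM without DOX and 937, 887 and 929 CPM under DOX. The groups overlapped, and the log2 fold change was -0.08 (95% interval -0.23 to 0.06, adjusted p = 0.411). TUBB4B, the other broadly expressed beta isotype, was at 224, 230 and 279 CPM without DOX and at 264, 232 and 233 CPM with it. Its log2 fold change was -0.01 (95% interval -0.17 to 0.15), and the groups overlapped. TUBB6 was at 112, 124 and 131 CPM and at 121, 111 and 119 CPM, with a log2 fold change of -0.07 (95% interval -0.22 to 0.08). Among these 3 genes no bound lay farther from 0 than -0.23.

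TUBB3 was the one member that passed the threshold. It was at 51.5, 52.4 and 59.0 CPM without DOX and rose to 79.8, 78.0 and 71.7 CPM under DOX. Every DOX-positive library lay above every DOX-negative library. The mean rose from 54.3 ± 4.09 to 76.5 ± 4.23 CPM (SD, n = 3), 1.41-fold, or 0.50 on the log2 scale (SE 0.08, 95% interval 0.33 to 0.66, adjusted p = 6.19e-05 by edgeR). In these bulk libraries, more cells with TUBB3 message and more message per cell cannot be told apart. Behind these values stood 936, 1025 and 1186 counts without DOX and 1831, 1493 and 1067 counts with DOX. The call was lost on the deposited TPM: on the log2(TPM + 1) scale the change was 0.10 (limma adjusted p = 0.811), and on the log2(TPM + 0.1) scale it was also 0.10 (adjusted p = 0.814). The small RNAs RN7SK, RPPH1 and RN7SL1 to RN7SL3 took up 34.4% to 64.4% of the deposited TPM of a library, and the lowest share was in DOX-negative replicate 2. Of the counts they were 0.488% to 1.76%. With the TPM rescaled without them, TUBB3 was higher by 0.47 (adjusted p = 0.000814).

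The TUBB3 locus (GRCh38, chromosome 16, 89921392 to 89938761, plus strand) lies downstream of MC1R, and GENCODE lists a read-through transcript, AC092143.1, that joins them. The read-through shares 1584 exon bases with TUBB3 on the same strand, and 89.2% of the 75-base windows of the TUBB3 transcript occur in a transcript of another gene, mostly this one. AC092143.1 is not a row of the count table under that name, and how its reads were assigned is not given in the sources used here. MC1R itself was at 6.07 CPM without DOX and at 5.06 CPM with it (adjusted p = 0.307).

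**Figure D1:**
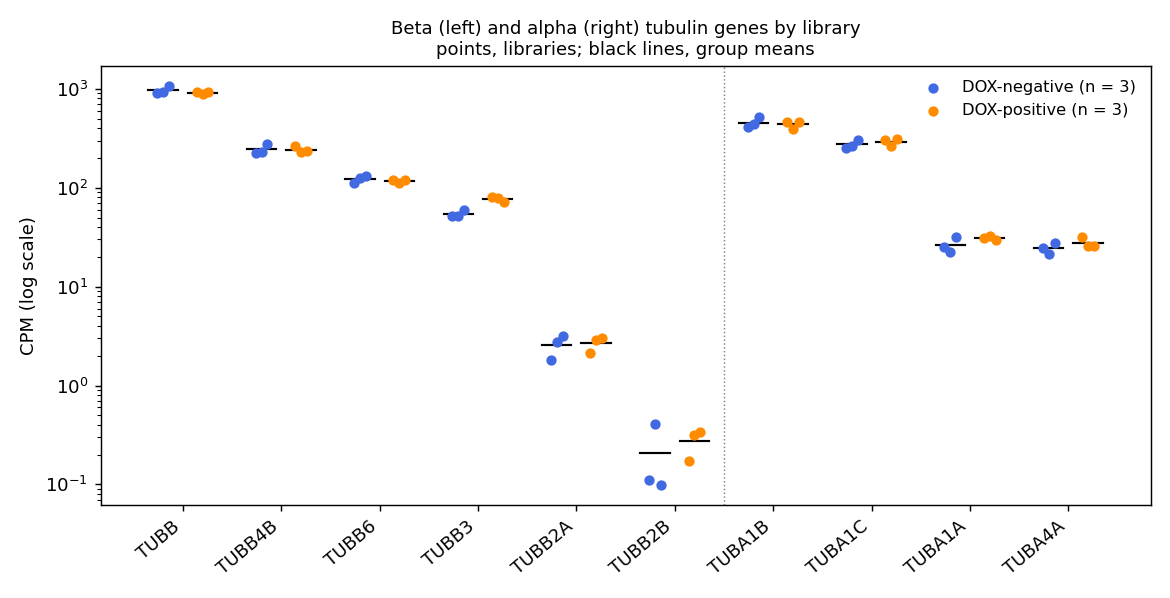
CPM (log axis) of the 6 beta and 4 alpha tubulin genes in each of the 6 libraries, with blue points for DOX-negative, orange points for DOX-positive and black lines for group means. TUBB3 was the one gene whose groups did not overlap, at 51.5 to 59.0 against 71.7 to 79.8 CPM.

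TUBB2A and TUBB2B, the paired class II isotypes, were at the low end. TUBB2A had between 33 and 64 counts a library and was at 2.59 ± 0.700 CPM without DOX and 2.68 ± 0.476 CPM with it. The 95% interval of its log2 fold change, -0.52 to 0.57, was the widest of the 9. TUBB2B had 2 to 8 counts a library and was not tested. The 2 proteins are 99.55% identical, and 60.4% of the 75-base windows of TUBB2A occur in another gene's transcript, so the split between them is uncertain. Summed before testing, the pair gave a log2 fold change of 0.06 (SE 0.26, adjusted p = 0.897).

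TUBA1B was the most abundant alpha tubulin message, at 414, 440 and 515 CPM without DOX and at 461, 395 and 461 CPM with DOX. TUBA1C followed at 255, 266 and 303 CPM and at 302, 263 and 309 CPM. The groups overlapped for both, with log2 fold changes of -0.06 (95% interval -0.22 to 0.10) and 0.08 (95% interval -0.07 to 0.24). TUBA1A, the main alpha isotype of developing neurons, was at 25.1, 22.5 and 31.5 CPM without DOX and at 30.9, 32.8 and 29.6 CPM with DOX. Its log2 fold change was 0.24 (SE 0.11, adjusted p = 0.112), which did not pass the test. Without DOX-negative replicate 3, the highest of its group, the change was 0.39 and passed (adjusted p = 0.0118). Without DOX-negative replicate 2, the lowest of its group, it was 0.14 (adjusted p = 0.413). TUBA4A was at 24.3, 21.4 and 27.4 CPM and at 31.8, 25.6 and 26.0 CPM, with a log2 fold change of 0.19 (SE 0.11, adjusted p = 0.204).

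Reads are hard to assign among the alpha genes. The share of 75-base windows that occur in another gene's transcript was 48.4% for TUBA1B, 27.0% for TUBA1A and 17.0% for TUBA1C, against 3.02% for TUBA4A. The read length is not given, and the shares depend on the window. They were 62.7%, 41.1%, 25.1% and 5.25% for windows of 50 bases, and 37.2%, 18.3%, 11.5% and 1.84% for windows of 100 bases. TUBA1A (chromosome 12, 49184796 to 49189324, minus strand) and TUBA1C (chromosome 12, 49188736 to 49274603, plus strand) also overlap on opposite strands over 490 exon bases. TUBA4A overlaps STK16 in the same way over 627 exon bases (224 to 406 STK16 counts a library). The beta gene TUBB6 overlaps AFG3L2 over 837 exon bases, again on opposite strands (1468 to 2342 AFG3L2 counts a library). Whether the counting used strand is not given in the sources used here. Summed, TUBA1A, TUBA1B and TUBA1C gave a log2 fold change of 0.01 (SE 0.08, adjusted p = 0.953).

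In all, 1 of the 9 members tested was called (11.1%), against 26.7% of the 14292 genes tested. It was higher in the DOX-positive libraries, where 13.0% of all genes were called higher. No member was called lower, against 13.7% of all genes, and at an unadjusted p under 0.05 the count of lower members was also 0 with edgeR and DESeq2, while that of higher members was 2 with edgeR (TUBB3 and TUBA1A) and 1 with DESeq2 (TUBB3). The CPM groups did not overlap for 1 of the 9, against 39.8% of all genes. The median log2 fold change of the 9 was 0.03, that of all genes tested was -0.003 and the median absolute change of all genes was 0.19.

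**Figure D2:**
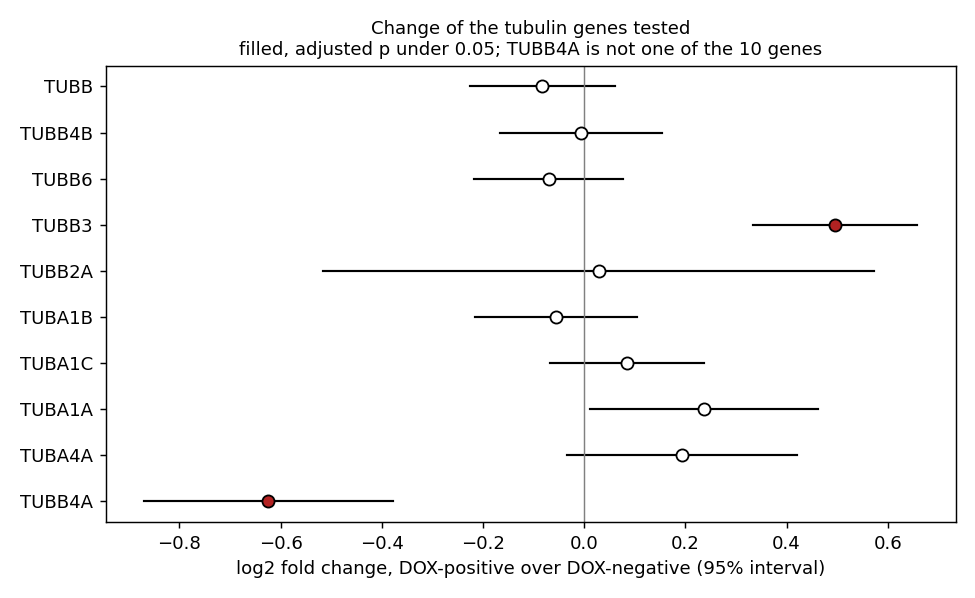
Log2 fold change of DOX-positive over DOX-negative with its 95% interval for the 9 members tested and for TUBB4A, filled where the edgeR adjusted p was under 0.05. TUBB3 (0.50) and TUBB4A (-0.62) are the filled points, and TUBB2A has the widest interval (-0.52 to 0.57).

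Levels of different genes can be compared only per length. As CPM per kilobase of the principal GENCODE transcript, the DOX-negative order was TUBB at 364 ± 35.1, TUBA1B at 280 ± 32.4, TUBB4B at 149 ± 18.5, TUBA1C at 91.5 ± 8.40, TUBB6 at 59.4 ± 4.56 and TUBB3 at 30.7 ± 2.31 (SD, n = 3). TUBA1A at 13.8 ± 2.43, TUBA4A at 11.3 ± 1.4, TUBB2A at 1.62 ± 0.439 and TUBB2B at 0.102 ± 0.0870 followed. TUBA1A and TUBA4A were the neighbours whose libraries overlapped in this order (11.7 to 16.5 against 9.89 to 12.7). With DOX, TUBB3 reached 43.2 ± 2.39 CPM per kilobase and stayed below TUBB6 at 56.6 ± 2.68.

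The deposited TPM gave another order, in which TUBB4B led the beta genes. TUBB4B was at 240 ± 56.6 TPM without DOX and TUBB at 54.3 ± 13.9 TPM, although TUBB had 972 and TUBB4B 244 CPM. A length that relates the deposited counts to the deposited TPM was computed for each gene. Its scale set the median ratio of counts to TPM to the median annotated exon length. On that scale the length was 35978 bases for TUBB. Its annotated exons cover 3359 bases (GRCh38, chromosome 6, 30720201 to 30725426, plus strand), a ratio of 10.7. On that scale the implied length was longer than the whole annotated TUBB gene from start to end. For the other 9 members the ratio was between 0.607 and 1.33. TUBB was not alone in its neighbourhood: of 40 genes within 1 Mb of it, 36 had a ratio over 4, with a median of 7.80, whereas 0.802% of the 10721 other genes did. The cause was not tested, and shares are therefore given on both bases.

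**Figure D3:**
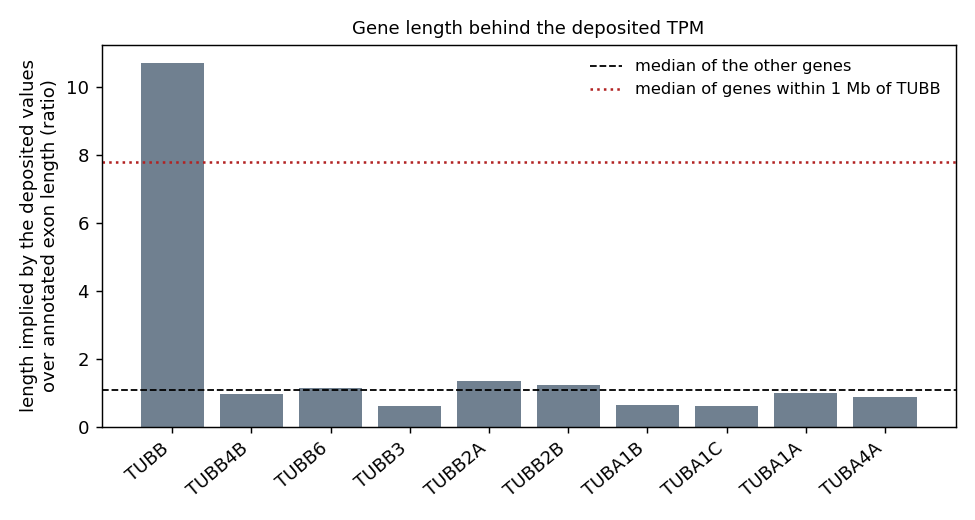
Ratio of the gene length implied by the deposited counts and TPM to the annotated exon length for the 10 genes, with lines for the median of genes within 1 Mb of TUBB (7.80) and of all other genes (1.07). TUBB stands at 10.7 and the other 9 between 0.607 and 1.33.

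Isotype shares were computed within each class, so that they do not depend on the total of a library. Of the beta TPM, TUBB4B held 61.6% ± 1.06 without DOX and 59.8% ± 1.18 with DOX (SD, n = 3). TUBB held 13.9% ± 0.142 and 12.8% ± 0.542, and TUBB6 13.4% ± 0.703 and 12.4% ± 0.494. TUBB3 held 10.7%, 10.5% and 10.1% without DOX and 14%, 15.1% and 13.8% under DOX, a difference of 3.87 points with no overlap. On counts per kilobase of the GENCODE transcript, TUBB held 60.2% ± 0.196 without DOX and 57.9% ± 1.05 with DOX. On that basis TUBB4B held 24.6% ± 0.617 and 25.0% ± 1.04, TUBB6 9.83% ± 0.454 and 9.53% ± 0.197, and TUBB3 5.08% ± 0.129 and 7.29% ± 0.413, a TUBB3 difference of 2.20 points with no overlap. So TUBB3 took a larger share of beta tubulin message with DOX in every library on either basis. TUBB4B held most of that message from the deposited TPM, whose implied length for TUBB is longer than the annotated gene. TUBB held most of it per GENCODE transcript, per exon union and on counts not divided by length (60.2%, 64.5% and 69.6% without DOX).

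**Figure D4:**
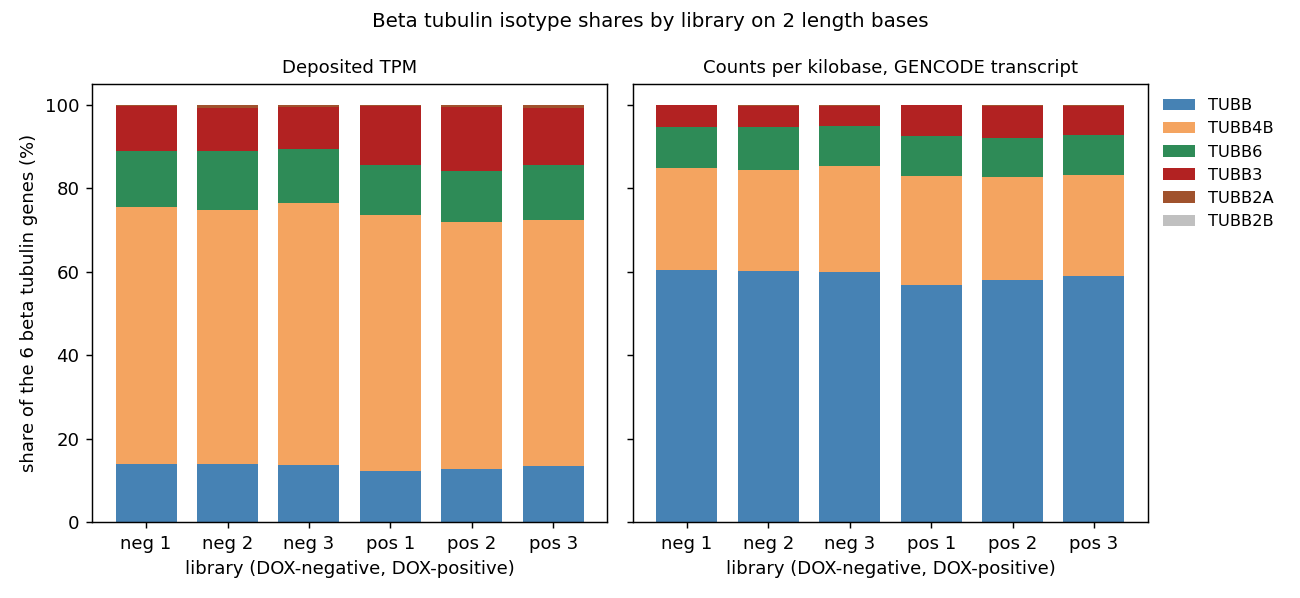
Share (%) of the 6 beta tubulin genes in each library, from the deposited TPM on the left and from counts per kilobase of the GENCODE transcript on the right. TUBB3, in red, is larger in the 3 DOX-positive libraries on both bases, while TUBB, in blue, goes from 13.9% to 60.2% of the DOX-negative beta message between the bases.

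Among the alpha genes, TUBA1B held 63.7%, 64.6% and 64.7% of the TPM without DOX and 62.1%, 61.3% and 61.9% with DOX, a fall of the mean by 2.54 points with no overlap. TUBA1C held 31.0% ± 0.499 and 32.8% ± 0.403 and TUBA1A 2.48% ± 0.238 and 2.95% ± 0.405, again without overlap. TUBA4A held 2.19% ± 0.193 and 2.49% ± 0.252, and its groups overlapped. On counts per kilobase of the GENCODE transcript, TUBA1B held 70.6% ± 0.588 and 68.1% ± 0.515, TUBA1C 23.1% ± 0.421 and 24.5% ± 0.357, TUBA1A 3.46% ± 0.325 and 4.13% ± 0.558, and TUBA4A 2.84% ± 0.249 and 3.25% ± 0.323. The same 3 alpha genes had groups that did not overlap on that basis, but on counts not divided by length the TUBA1A groups overlapped (exact permutation p = 0.2). Shares within a class are tied to each other, so that 1 cannot grow without another shrinking. By the two-sided exact permutation test the TPM share differences of TUBB, TUBB3, TUBA1A, TUBA1B and TUBA1C each had p = 0.1, the smallest value that 3 against 3 libraries allow. The Benjamini-Hochberg value over the 10 shares was 0.2 for each of the 5, so none could pass.

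The pooled level of each class did not separate the groups. The 6 beta genes summed to 605 ± 60.2 CPM per kilobase without DOX and 594 ± 22.4 with DOX, and the 4 alpha genes to 397 ± 44.0 and 396 ± 31.8. The ratio of beta to alpha message was 1.53 ± 0.0164 and 1.5 ± 0.0850, and the groups overlapped for both sums and for the ratio.

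Of the other tubulin genes, 13 were in the table and 7 were tested, with 1 higher and 2 lower (42.9% called, against 26.7% of all genes). TUBB4A, a beta isotype of the nervous system, fell from 27.2, 23.7 and 30.5 CPM to 17.2, 20.4 and 15.1 CPM, without overlap (log2 fold change -0.62, SE 0.12, adjusted p = 0.000415). It moved opposite to TUBB3, the other isotype best known from neurons. TUBG1, the gamma tubulin that seeds microtubules and a close copy of TUBG2, fell from 96.4 ± 8.47 to 73.8 ± 7.91 CPM (log2 fold change -0.39, adjusted p = 0.00146). TUBE1, the epsilon tubulin of centrioles, rose from 14.5 ± 1.58 to 21.9 ± 1.03 CPM (log2 fold change 0.59, adjusted p = 0.000363). TUBD1 (log2 fold change -0.30, adjusted p = 0.0876), TUBG2 (-0.17, adjusted p = 0.297), TUBA8 (-0.23, adjusted p = 0.587) and TUBA4B (-0.05, adjusted p = 0.938) did not pass. TUBB1, TUBB8 and TUBAL3 were at or below 0.575 CPM in every library and were not tested, and TUBA3C, TUBA3D and TUBA3E had 0 counts, where 3 counts correspond to 0.129 to 0.199 CPM.

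New tubulin is folded by prefoldin and the CCT chaperonin and paired by the cofactors TBCA to TBCE with the small GTPase ARL2. Of 8 genes on the cofactor list, 2 were higher and 0 lower (25% called, against 26.7% of all genes), and the median log2 fold change was 0.07. They were TBCEL, a relative of TBCE that destabilises tubulin, from 34.5 ± 1.68 to 46.5 ± 1.04 CPM (adjusted p = 0.000433), and TBCCD1, a TBCC-like protein of the centrosome, from 23.9 ± 2.10 to 31.5 ± 1.00 CPM (adjusted p = 0.00297). None of the core cofactors passed: log2 fold changes were -0.11 for TBCA, -0.16 for TBCB, -0.04 for TBCC, 0.18 for TBCD and -0.14 for TBCE (lowest adjusted p = 0.101). ARL2 was at 0.46 (adjusted p = 0.0590), and it passed without DOX-negative replicate 3 (0.63, adjusted p = 0.0215). Of the 14 prefoldin and chaperonin genes, 1 was higher and 3 lower (28.6% called, against 26.7% of all genes), with a median of -0.10. The count of lower genes fell to 1 without DOX-negative replicate 3. CCT3 went from 697 ± 91.7 to 585 ± 5.21 CPM, CCT4 from 213 ± 14 to 180 ± 5.20 CPM and CCT8 from 408 ± 30.6 to 359 ± 15.4 CPM (adjusted p = 0.0148, 0.00607 and 0.0380). PFDN1, a prefoldin subunit, went from 89.2 ± 6.03 to 103.5 ± 4.09 CPM (adjusted p = 0.0296). Without DOX-negative replicate 3 the calls of CCT3 (adjusted p = 0.123) and CCT8 (adjusted p = 0.196) were lost. CCT8 was also lost without DOX-positive replicate 1 or 2 (0.142 and 0.0735), and PFDN1 without replicate 1 or 2 of DOX-negative or replicate 1 or 3 of DOX-positive (0.0936 to 0.126).

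None of the 3 autoregulation genes passed in edgeR (0% called, against 26.7% of all genes), and at an unadjusted p under 0.05 the count was 0 too. The CPM groups did not overlap for 2 of the 3, TTC5 (higher) and CNOT11 (lower), against 39.8% of all genes. TTC5, the factor that recognises the starts printed above, went from 11.8 ± 0.437 to 13.8 ± 0.201 CPM (log2 fold change 0.23, adjusted p = 0.163). SCAPER and CNOT11 had log2 fold changes of 0.11 (adjusted p = 0.493) and -0.08 (adjusted p = 0.493).

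Of 26 genes for tubulin modifying enzymes, most of which act on the tails, 21 were tested. Of these 2 were higher and 6 lower (38.1% called, against 26.7% of all genes), with a median log2 fold change of -0.13. The count of lower genes fell to 3 without DOX-negative replicate 3 and to 3 without DOX-positive replicate 3. TTL, which restores the final tyrosine that TUBA1A, TUBA1B and TUBA1C encode, was at 111, 114 and 111 CPM without DOX and at 68.2, 64.1 and 66.9 CPM with DOX. The groups stood far apart, with DOX-positive at 59.2% of DOX-negative (log2 fold change -0.76, SE 0.07, adjusted p = 3.12e-08). Genes that remove that tyrosine were lower too. VASH2, a carboxypeptidase, went from 4.04 ± 0.688 to 2.37 ± 0.453 CPM (log2 fold change -0.78, adjusted p = 0.0165), and MATCAP1, listed under its older symbol KIAA0895L, from 13.6 ± 1.43 to 10.3 ± 0.158 CPM (log2 fold change -0.40, adjusted p = 0.0210). VASH2 lost its call without replicate 2 or 3 of DOX-negative or replicate 1 or 3 of DOX-positive (adjusted p of 0.0502 to 0.0791). KIAA0895L lost its call without replicate 1 or 2 of DOX-negative or replicate 3 of DOX-positive (0.0564 to 0.115). VASH1 and its partner SVBP, named after their values were seen, did not pass (adjusted p = 0.371 and 0.678).

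AGBL5, which trims branching glutamates from the tails, fell from 87.4 ± 4.08 to 71.1 ± 1.70 CPM (adjusted p = 0.00321). TPGS1, a subunit of the polyglutamylase complex, rose from 3.0 ± 0.236 to 5.19 ± 0.469 CPM (log2 fold change 0.79, adjusted p = 0.00412). SIRT2, an alpha tubulin deacetylase, rose from 13.9 ± 1.86 to 22.4 ± 2.63 CPM (log2 fold change 0.68, adjusted p = 0.000237). The acetylase ATAT1 and the other deacetylase HDAC6, also named after their values were seen, did not pass (adjusted p = 0.267 and 0.147).

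Of 38 tested genes for microtubule-associated, plus-end and severing proteins, 6 were higher and 5 lower (28.9% called, against 26.7% of all genes), with a median log2 fold change of 0.01. The count of lower genes fell to 3 without DOX-negative replicate 3, DOX-positive replicate 1 or DOX-positive replicate 3. MAP7, an epithelial microtubule protein that recruits kinesin-1, had the largest rise, from 13.9, 17.4 and 14.2 CPM to 34.4, 39.8 and 36.2 CPM. That was 2.42-fold (log2 fold change 1.27, SE 0.11, adjusted p = 1.02e-08). MAP9 of the spindle (0.58), the neuronal MAP1B (0.38) and the plus-end protein CLIP1 (0.36) also rose on the log2 scale. MAP2, a dendritic protein, fell from 9.98 ± 1.47 to 5.31 ± 2.01 CPM (log2 fold change -0.89, adjusted p = 0.00178). MAPT, which encodes the neuronal microtubule protein tau, fell from 15.6 ± 1.84 to 11.3 ± 0.745 CPM (log2 fold change -0.46, adjusted p = 0.00806). The plus-end protein CLASP1 (-0.40) and MAP7D3 (-0.23), a relative of MAP7, fell too. Without DOX-negative replicate 2 the adjusted p of MAPT was 0.0519. That of MAP7D3 was 0.173 without DOX-negative replicate 3 and 0.0907 and 0.0615 without DOX-positive replicate 1 and 3. STMN1, which sequesters tubulin pairs, and MAP4, the main non-neuronal microtubule protein, were named after their values were seen, with adjusted p = 0.928 and 0.576.

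In the gamma-tubulin ring complex, which holds TUBG1 at nucleation sites, 1 of 9 genes was higher and 2 lower (33.3% called, against 26.7% of all genes). TUBGCP4 went from 93.3 ± 3.65 to 74.8 ± 3.83 CPM and NEDD1, its targeting factor, from 143 ± 11.2 to 114 ± 3.03 CPM (adjusted p = 0.00183 and 0.00126). TUBGCP2 went from 74.9 ± 3.34 to 89.6 ± 4.35 CPM (adjusted p = 0.0102), and lost its call without DOX-negative replicate 1 (0.0754) or DOX-positive replicate 3 (0.0523). Among 10 proliferation markers BIRC5 was higher (log2 fold change 0.34, adjusted p = 0.00144), BUB1 was lower (-0.23, adjusted p = 0.0144) and the other 8 did not pass (20% called, against 26.7% of all genes). BUB1 lost its call without DOX-negative replicate 3 (adjusted p = 0.0888).

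**Figure D5:**
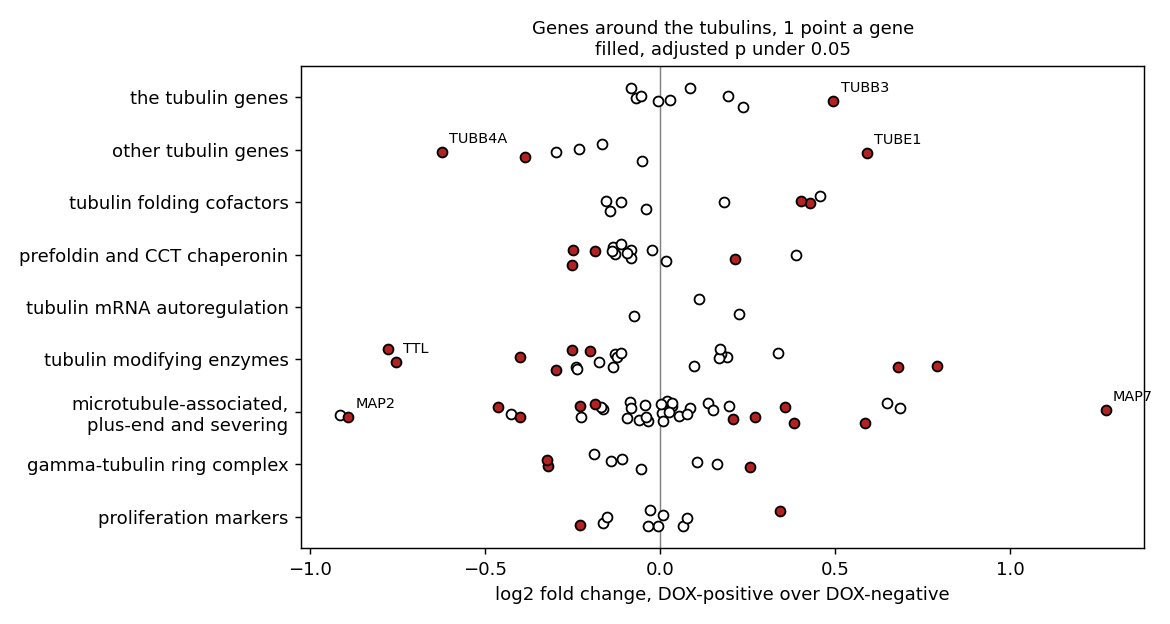
Log2 fold change of DOX-positive over DOX-negative for each tested gene of the tubulin list and of 8 lists around it, 1 point a gene, filled where the edgeR adjusted p was under 0.05. TUBB3 (0.50) is the one filled tubulin of the top row, and MAP7 (1.27) and MAP2 (-0.89) mark the filled extremes of the microtubule-associated list.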

How the data were processed

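The authors deposited whole-number read counts for 28008 genes and a table of TPM values for 25546 of them. The submitters' processing notes name STAR, DESeq2, GRCh38 and hg38 without versions. The annotation, the counting step, its use of strand and the read length are not given in the sources used here. Libraries were stranded poly(A) libraries (TruSeq Stranded mRNA). Samples were grouped by their titles, and table columns, which abbreviate the line differently, were matched by DOX state and replicate number.

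Counts were tested with edgeR 4.0.16 in R 4.3.3: filterByExpr (14292 genes kept), TMM factors (0.986 to 1.03), glmQLFit and glmQLFTest, two-sided, with no covariate. The threshold was an adjusted p (Benjamini-Hochberg, all genes tested) under 0.05. TPM alternatives used limma 3.58.1, and DESeq2 1.42.0 was another alternative. The edgeR fit was also run on counts simulated from the DOX-negative means. Fewer genes were changed there than were called here, so that run does not test the fit under a change this wide. Isotype shares were each gene's percent of the summed TPM of its class, compared by the two-sided exact permutation test. Annotation, lengths and sequences came from GENCODE 29. Reads carry no molecular identifiers as far as stated, so 3 counts as a floor cover counting error only. The cultures are called triplicates without more detail, so p-values measure the spread between these libraries. Within each group, libraries lay farther apart than counting noise alone would put them (chi-square per degree of freedom 3.78 to 20.2). Differences in library preparation can give such a spread too, so it does not show whether the cultures were independent. Each library was counted as 1 sample.

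The 10 genes and the gene lists were chosen with earlier results of these data known. All 10 were named; from each other list, up to 4 rises and 4 falls were named among genes past the threshold with non-overlapping groups and an average log2 CPM of 1 or more, plus every gene of the other-tubulin, cofactor and autoregulation lists. On the lists, 1 symbol (TUBB8B) matched no row.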

Additional observations from a re-analysis of the deposited data

How the results depend on the processing

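With 3 libraries a group, the 95% bounds for TUBB, TUBB4B, TUBB6, TUBA1B and TUBA1C lay between -0.23 and 0.24 (log2), whereas TUBB2A and TUBB2B are limited by counts. TUBB3 passed the threshold in 15 of 17 alternatives, all but the log2(TPM + 1) and log2(TPM + 0.1) scales, where 0 members were higher. With the replicate block its log2 fold change was 0.50 (adjusted p = 0.000618) and 1 member was higher. Same-numbered libraries did not deviate together (correlations of -0.0189, -0.0950 and -0.0273). Whether same-numbered cultures were handled together is not given in the sources used here. Over all genes the block gave 1522 higher and 1636 lower calls against 1861 and 1955. Leaving out 1 library in turn gave 1 to 2 members higher, the second being TUBA1A, and 0 lower. It gave 9 to 14 higher and 11 to 16 lower genes among the lists around the tubulins, against 13 and 18, with the 11 coming without DOX-negative replicate 3. The share called within each list is given above. Over all genes the same fits gave 1379 to 1768 higher and 1405 to 1877 lower, against 1861 and 1955 of 14292 with all 6 libraries (26.7% called). The TPM scales moved the median of all genes by -0.32 (log2(TPM + 1), 30 higher and 413 lower) and -0.39 (log2(TPM + 0.1), 29 and 379), and library totals gave 1507 higher and 2329 lower. No paired analysis of the isotype shares was run, because no pairing of the cultures is given.

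The sign changed for some members and for TUBA4B and TBCC, none of which passed the threshold in edgeR with all 6 libraries. TUBB2A was at -0.0046 with library totals, -0.024 after thinning to the smallest total, -0.22 and -0.31 on the 2 TPM scales, and between -0.17 and 0.21 with 1 library left out. On the TPM scales TUBA1A was at -0.13 and -0.14, TUBA1C at -0.31 and -0.31, and TUBA4A at -0.19 and -0.20. TUBB4B was at 0.0060 after thinning. With 1 library left out, TUBB4B lay between -0.071 and 0.10, TUBA1B between -0.12 and 0.041, TUBA4B between -0.31 and 0.12, and TBCC between -0.12 and 0.045. Under the replicate block PFDN1, CCT8 and MAP7D3 missed the threshold, and with rescaled TPM MAP9 and MAPT did, while ARL2 passed it.

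The share of TUBB in the DOX-negative beta message was 13.9% from TPM, 13.4% with all detected isotypes in the denominator, 69.6% from counts not divided by length, 60.2% per GENCODE transcript and 64.5% per exon union. The last 2 were chosen after seeing the data. The TUBB3 difference was 3.87 points from TPM, and 1.74, 2.20 and 1.23 points on counts, counts per transcript and counts per exon union. The TUBA1B share was 64.3%, and 58.3%, 70.6% and 63.6% on the same bases. With 1 library left out, the TUBB share was 13.9% to 14%, the TUBB3 difference 3.47 to 4.12 points and the TUBA1B share 64.1% to 64.6%.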
